A study of Equus asinus with 2 samples.

Results

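FOXL2, WNT4 and RSPO1 head the programme that makes a fetal gonad an ovary, and LGR5, ZNRF3, LEF1 and RUNX1 are receptors, regulators and transcription factors that act with it. These 7 genes were taken by their symbols from the gene table of single-cell RNA libraries of fetal donkey (Equus asinus), and all 7 were found among 38517 features. The tissue was a library at 8 weeks of gestation whose label says ovary, and a library at 4 weeks made from gonad together with mesonephros, the transient embryonic kidney beside the gonad. The labels give no genotype or treatment, no fetal sex and no number of fetuses per library, and they call the cells of both libraries germ cells. Each stage is 1 library, so no test between stages was possible, and stage, dissected tissue and library cannot be told apart.

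In the mammalian gonad, WNT4 is a secreted WNT ligand and RSPO1 is a secreted amplifier of WNT signalling. R-spondins bind receptors of the LGR family such as LGR5 and keep the ubiquitin ligase ZNRF3 from removing the Frizzled receptors of WNT ligands, and the signal reaches genes through beta-catenin and DNA-binding partners such as LEF1. FOXL2 is the forkhead transcription factor that keeps granulosa cells of the ovary from taking a Sertoli fate, and RUNX1, a transcription factor best known from blood formation, acts beside it in supporting cells of the fetal mouse ovary. Sertoli cells are the matching supporting cells of the testis and carry AMH and SOX9, while SRY on the Y chromosome starts their formation.

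The 8-week library held 14593 cell barcodes and 155128130 UMIs (unique molecular identifiers, a count of RNA molecules that ignores PCR copies), with a median of 5877 UMIs per barcode. The 4-week library held 8938 barcodes and 122341903 UMIs, with a median of 7728. The libraries shared 38 barcode sequences. Cells were placed in 14 classes by marker genes that do not include the 7 genes, and 65.8% of the 8-week and 71.7% of the 4-week cells fell in exactly 1 class. Class names end in "-like" since they rest on these markers alone. A level is the CPM of a gene, its UMIs in a class over all UMIs in that class times 1000000, and parentheses hold its 95% Poisson interval. All intervals cover counting error only and hold no spread between animals.

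The contents of the library labelled ovary went against a purely ovarian label. Its 724 Sertoli-like cells carried the anti-Müllerian hormone gene AMH at 3738 CPM, against 2858 CPM in 593 Sertoli-like cells at 4 weeks. SRY stood at 9.20 CPM in these 8-week cells and 9.74 CPM in the 4-week cells, and DMRT1, a keeper of male fate, at 63.8 and 75.9 CPM. Neither gene was particular to Sertoli-like cells. SRY stood at 13.4 and 9.68 CPM in stroma-like cells, and DMRT1 at 110 and 90.0 CPM in germ-cell-like cells. The gate for the ovary's own supporting cells, called pre-granulosa, was met by 2 cells at 8 weeks and 4 cells at 4 weeks that met no other gate, and by 101 and 189 cells when those of other gates are counted. The summed markers of this gate had a median of 304 and 354 CPM per endothelial-like cell, against 172 and 252 CPM per Sertoli-like cell. They are thus not particular to supporting cells here, and these counts cannot show whether pre-granulosa cells are absent. Germ-cell-like cells made up 5.50% of the 8-week and 5.11% of the 4-week cells, while the labels name germ cells for both libraries. AMH was also found at 61.4 CPM in 8-week and 28.6 CPM in 4-week endothelial-like cells, which should lack it, a gauge of free RNA or mixed droplets.

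**Figure D1:**
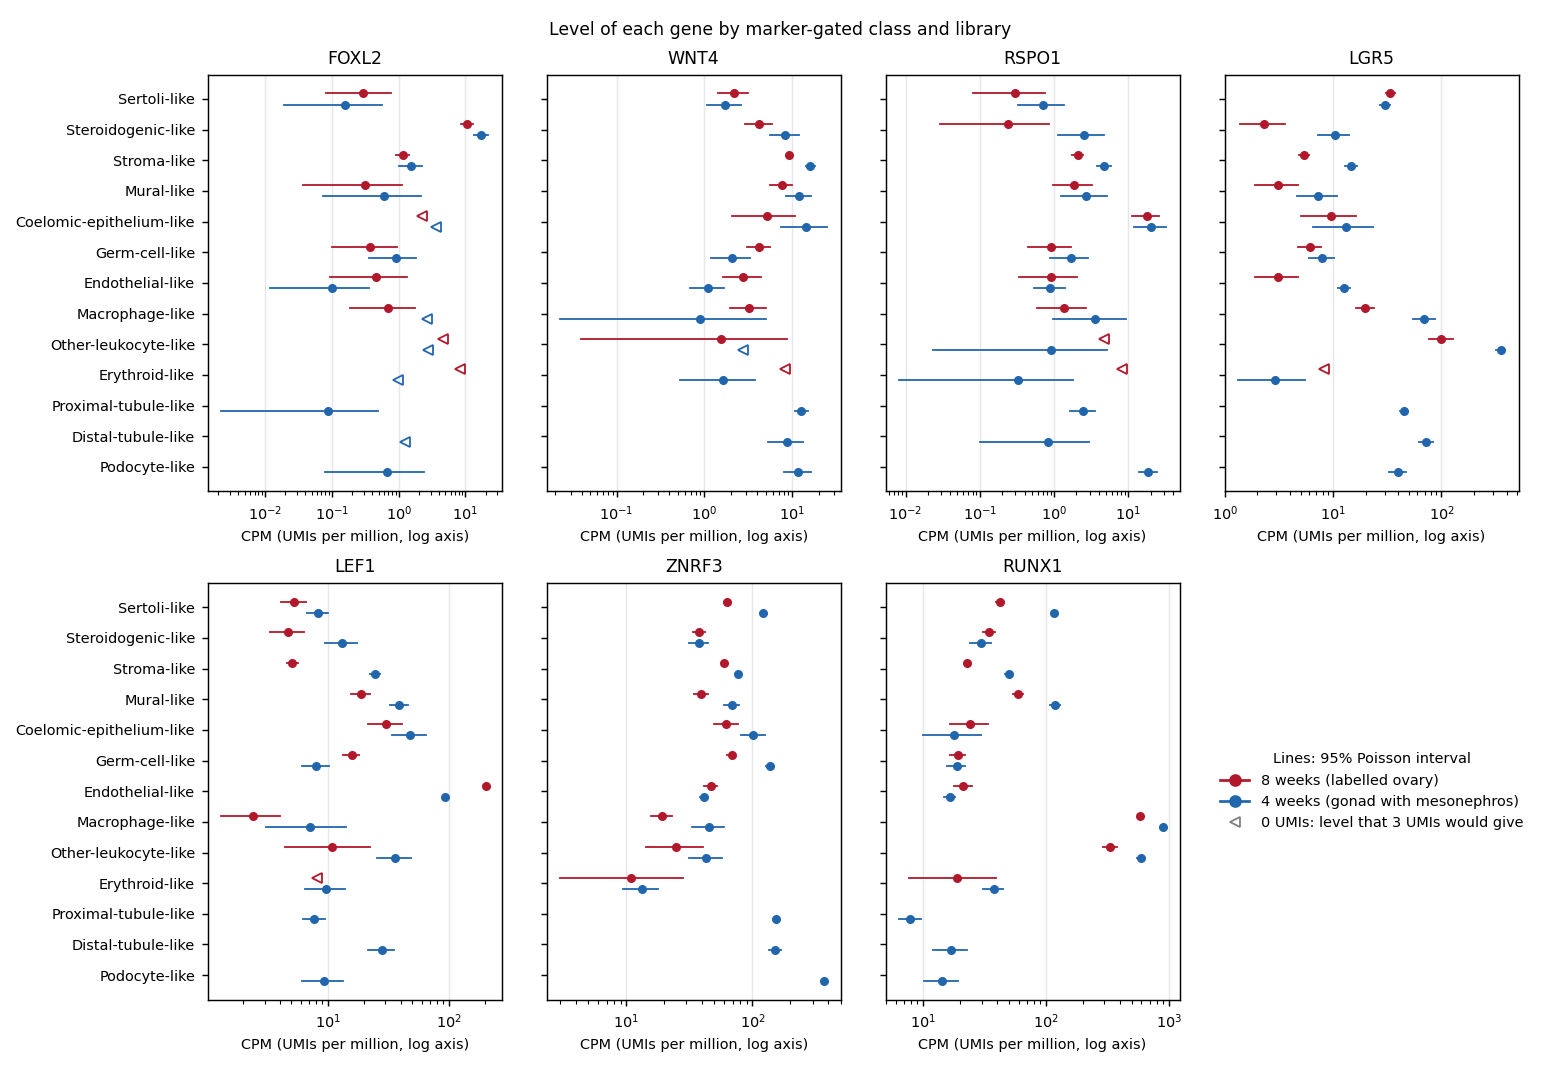
Level of each of the 7 genes in CPM (log axis) by marker-gated class, with the 8-week library above the 4-week library in each row; lines are 95% Poisson intervals and open triangles mark classes with 0 UMIs, drawn at the level that 3 UMIs would give. FOXL2 is highest in steroidogenic-like cells, LGR5 in other leukocytes, LEF1 in endothelium, ZNRF3 at 4 weeks in podocytes and RUNX1 in macrophages. Classes with under 20 cells in a library are not drawn.

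FOXL2 was highest in cells that make steroids, and in the gated Sertoli-like cells its interval overlapped that of endothelium. Steroidogenic-like cells, which carry the androgen enzyme CYP17A1 and the cholesterol carrier STAR, held FOXL2 at 10.6 CPM (8.47 to 13.0, 88 UMIs in 419 cells) at 8 weeks and 17.2 CPM (13.2 to 22.0, 62 UMIs in 175 cells) at 4 weeks. Sertoli-like cells held 4 FOXL2 UMIs at 8 weeks, 0.297 CPM (0.0808 to 0.759), and 2 UMIs at 4 weeks, 0.157 CPM (0.0190 to 0.568). Endothelial-like cells held FOXL2 at 0.462 CPM (0.0952 to 1.35) and 0.0994 CPM (0.0120 to 0.359) at these stages, so the Sertoli-like level lay within the range of a class that should lack the gene. With 1 marker fewer per gate the 8-week Sertoli-like level was 1.18 CPM (11 UMIs), and with clusters named by markers 0.82 CPM (13 UMIs). Of these 13 UMIs, 12 lay in cluster 24, led by SPP1 and APOA1, at 1.83 CPM (0.947 to 3.20), which overlapped the endothelial-like interval. The steroidogenic interval lay above that of every other class of at least 50 cells in both libraries. Stroma-like cells came next with 1.16 CPM (0.925 to 1.43) at 8 weeks and 1.55 CPM (1.02 to 2.25) at 4 weeks, and their interval overlapped that of the next class in each library.

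The steroidogenic-like cells held 36.7% of all 240 FOXL2 UMIs at 8 weeks and 49.2% of all 126 UMIs at 4 weeks, although they were 2.87% and 1.96% of the cells. At 8 weeks 65 of 419 such cells (15.5%) had a FOXL2 UMI, and at 4 weeks 41 of 175 (23.4%). The share in endothelial-like cells was 0.533% and 0.141%, at a median of 6197 and 7453 UMIs, where the steroidogenic-like cells had 16104 and 21299. Thinned to 2000 UMIs per cell, which left out 77 and 16 shallower steroidogenic-like cells, the FOXL2 share was 0.877% (0.181 to 2.54, 3 of 342 cells) at 8 weeks and 3.14% (1.03 to 7.19, 5 of 159 cells) at 4 weeks. No thinned endothelial-like cell held FOXL2 among 480 and 1348 cells, which allows shares of up to 0.625% and 0.223%. Most of the steroidogenic-like holders had 1 FOXL2 UMI, 51 cells at 8 weeks and 25 cells at 4 weeks, and the highest had 6 and 3.

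Over all cells, 206 at 8 weeks and 98 at 4 weeks held a FOXL2 UMI. Of these, 80 and 23 were stroma-like, 31 and 10 met no gate, and 12 and 8 met several gates. CYP17A1 accompanied FOXL2 in 80.6% of the 8-week and 69.4% of the 4-week holders, and STAR in 46.1% and 53.1%. Cells holding WNT4 carried CYP17A1 in 58.7% and 30%, those holding LGR5 in 70.7% and 42.8%, and those holding RUNX1 in 56.1% and 48.0%. These shares show how often the gene is seen in cells picked by another member. FOXL2 holders were deeper than WNT4 holders, at medians of 29170 and 25084 against 18267 and 19977 UMIs. AMH was seen in 57.3% and 30.6% of FOXL2 holders. WNT4 was seen in 37 of the 206 and 19 of the 98 FOXL2 holders, and RSPO1 in 8 and 12. Within the steroidogenic-like class, cells with FOXL2 had a median of 33625 UMIs at 8 weeks and 26672 at 4 weeks, and cells without it 14165 and 18040. CYP17A1 stood at 14298 CPM in the 8-week cells with FOXL2 and 10447 CPM in those without, and at 15092 and 13587 CPM at 4 weeks. STAR and CYP11A1 were also higher in cells with FOXL2 in both libraries. INSL3, another marker of the class, went the other way at 8 weeks, with 2249 CPM with FOXL2 and 3068 CPM without. At 4 weeks INSL3 stood at 208 CPM with FOXL2 and 136 CPM without. AMH stood at 72.0 and 58.8 CPM at 8 weeks and at 14.5 and 39.8 CPM at 4 weeks, on both sides of the endothelial-like level.

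**Figure D2:**
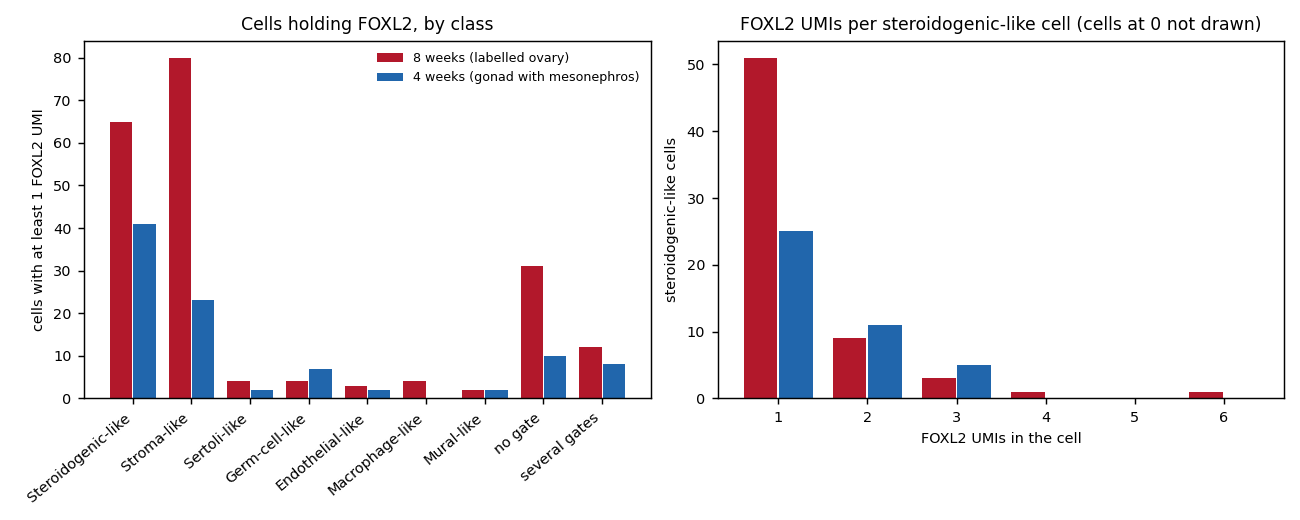
Left, number of cells with at least 1 FOXL2 UMI by class, 8 weeks left of 4 weeks; right, number of steroidogenic-like cells by FOXL2 UMIs per cell. Steroidogenic-like and stroma-like cells hold most FOXL2 at 8 weeks (65 and 80 cells), while Sertoli-like cells hold it in 4 and 2 cells.

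Among the gated classes, WNT4 was highest in stroma and in mesonephric epithelium. Stroma-like cells, the collagen-rich interstitium, held it at 9.15 CPM (8.47 to 9.87) at 8 weeks and 16.0 CPM (14.2 to 18) at 4 weeks, which was 63.8% and 23.8% of all WNT4 UMIs. At 8 weeks the next class, mural-like cells at 7.57 CPM (5.6 to 10), overlapped the stroma. At 4 weeks the proximal-tubule-like cells held WNT4 at 12.6 CPM (10.7 to 14.9), the podocyte-like cells at 11.6 CPM (8.08 to 16.1) and the distal-tubule-like cells at 8.61 CPM (5.33 to 13.2). Cells outside any single class held 16.5% of all WNT4 UMIs at 8 weeks, at 6.33 CPM (5.43 to 7.35), and 46.5% at 4 weeks, at 16.0 CPM (14.7 to 17.4). The unnamed cluster 21, whose 361 cells at 4 weeks had a median of 1760 UMIs, held WNT4 at 40.7 CPM (28.9 to 55.6), above the interval of every gated class of at least 50 cells. The tubule, podocyte and mural intervals overlapped each other, so their order is not resolved. Within the proximal-tubule-like cells WNT4 stood at 17.1 CPM (14.4 to 20.3) in the 296 cells of cluster 6, led by DCDC2, ESRRG and GLIS3, and at 0.867 CPM in the 333 cells of cluster 14, led by APOC2 and FBP1. Sertoli-like cells held WNT4 at 2.15 CPM (1.44 to 3.09) at 8 weeks and 1.73 CPM (1.08 to 2.62) at 4 weeks, against 2.77 CPM (1.64 to 4.38) and 1.09 CPM (0.685 to 1.66) in endothelial-like cells, and these intervals overlapped. In the Sertoli-like cells of cluster 4 alone, WNT4 was at 0.648 and 0.811 CPM. The 134 Sertoli-like cells of cluster 24 at 8 weeks, led by SPP1 and APOA1, held WNT4 at 5.42 CPM (3.21 to 8.57), 18 of the class's 29 UMIs. Steroidogenic-like cells held WNT4 at 4.20 CPM (2.92 to 5.84) at 8 weeks and 8.32 CPM (5.61 to 11.9) at 4 weeks, and germ-cell-like cells at 4.13 CPM (3.02 to 5.53) and 2.06 CPM (1.18 to 3.34). The direction thus differed between these classes, with log2 ratios of 8 over 4 weeks of -0.99 (-1.73 to -0.23) and 0.98 (0.16 to 1.93), a difference that was not tested. RefSeq's donkey gene table, whose assembly is not shown to be the files' build, places WNT4 beside CDC42. CDC42 had 32731 UMIs at 8 weeks and 27418 at 4 weeks. Other members also have counted neighbours, with RSPO1 beside GNL2 (5759 and 5362 UMIs), LEF1 beside HADH (3570 and 4331) and LGR5 beside LOC123279777 (1607 and 1194). How reads of neighbouring genes were assigned was not tested.

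RSPO1 was sparse, and its level was highest in coelomic-epithelium-like and podocyte-like cells and in 4-week cells outside any single class. By number of UMIs it was mostly in stroma-like cells at 8 weeks, with 152 of 271. Coelomic-epithelium-like cells, named for the gonad's surface lining, held RSPO1 at 17.6 CPM (11.3 to 26.2) in 44 cells at 8 weeks and 20.2 CPM (11.8 to 32.4) in 24 cells at 4 weeks. Both sets are under the 50 cells asked for a comparison, and their intervals overlapped. This class was mixed, since its summed stroma markers had a median of 4395 and 3930 CPM per cell. Its own markers had 1101 and 786 CPM. Of its cells, 39 at 8 weeks and 14 at 4 weeks lay in cluster 3, led by PENK, which also holds stroma-like cells. Podocyte-like cells of the 4-week library, the filter cells of the mesonephros, held RSPO1 at 18.6 CPM (14.0 to 24.1) and ranked first among the classes of at least 50 cells. Of the 600 RSPO1 UMIs at 4 weeks, 350 lay in cells outside any single class. By cluster, 235 of the 600 lay in the 930 cells of cluster 6, at 8.62 CPM (7.56 to 9.80), and 20 of these in its 296 gated proximal-tubule-like cells. Another 174 lay in an unnamed cluster of 405 cells found at 4 weeks only, led by EYA1, UNC13C and KIF26B, with RSPO1 at 20.2 CPM (17.3 to 23.4) and LEF1 at 92.1 CPM (85.8 to 98.7). Sertoli-like cells held RSPO1 at 0.297 CPM (0.0808 to 0.759) at 8 weeks and 0.707 CPM (0.323 to 1.34) at 4 weeks, against 0.923 CPM (0.339 to 2.01) and 0.895 CPM (0.530 to 1.41) in endothelial-like cells, and the intervals overlapped in each library.

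Stroma-like RSPO1 was 2.07 CPM (1.75 to 2.43) at 8 weeks and 4.76 CPM (3.79 to 5.90) at 4 weeks, a log2 ratio of 8 over 4 weeks of -1.20 (-1.60 to -0.80). The stroma cells richest in RSPO1 were those of cluster 3, led by PENK, SNTG1 and RXFP2, with 6.89 CPM (5.20 to 8.95) at 8 weeks and 12.2 CPM (8.97 to 16.1) at 4 weeks. In cluster 2, led by the cell division genes PCLAF and TOP2A, RSPO1 stood at 1.10 CPM (0.760 to 1.53) and 2.63 CPM (1.2 to 5.0). The stroma-like class was spread differently at each stage, since its largest share was 36.9% in cluster 0 at 8 weeks, led by MSC, ALKAL2 and LUM, and 44.6% in cluster 7 at 4 weeks, led by CTNNA3, TRHDE and VAT1L.

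LGR5, the R-spondin receptor, was found in supporting cells of both libraries. Sertoli-like cells held it at 33.7 CPM (30.6 to 36.9) at 8 weeks and 30.1 CPM (27.2 to 33.3) at 4 weeks, a log2 ratio of 0.16 (-0.04 to 0.36), and the intervals overlapped. Over the alternative gates and filters this ratio ran from -0.38 to 0.44. Endothelial-like cells held LGR5 at 3.08 CPM (1.88 to 4.75) and 12.7 CPM (11.2 to 14.3), so the Sertoli-like interval lay above theirs in each library. A shallow unnamed cluster of 177 cells at 8 weeks and 71 cells at 4 weeks, with AMH at 5747 and 2782 CPM, held LGR5 at 176 CPM (129 to 235) and 43.6 CPM (17.5 to 89.8).

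Among the gated classes the highest LGR5 level was in leukocytes other than macrophages, with 99.7 CPM (76.8 to 127) in 63 cells at 8 weeks and 351 CPM (317 to 388) in 104 cells at 4 weeks. The interval stood apart from every other class in its library. Nearly all of this LGR5 was in cluster 32, led by the lymphoid genes LTB, XCL1, IL17F, CTSW and KLRB1, with 144 CPM (111 to 184) in 41 cells at 8 weeks and 392 CPM (353 to 433) in 89 cells at 4 weeks. The 21 cells of cluster 37 at 8 weeks, led by the neutrophil and monocyte genes S100A12, S100A9 and S100A8, held a single LGR5 UMI, 5.54 CPM. Thinned to 2000 UMIs, LGR5 was seen in 9 of 57 (15.8%, 7.48 to 27.9) of these leukocytes at 8 weeks and 29 of 102 (28.4%, 19.9 to 38.2) at 4 weeks, at medians of 9606 and 9780 UMIs. In mural-like cells, where LGR5 was low, at medians of 8882 and 8652 UMIs, the thinned share was 0.206% and 0.376%. Before thinning, LGR5 was seen in 30.2% and 44.2% of these leukocytes and 3.03% and 5.26% of mural-like cells. Macrophage-like cells held LGR5 at 19.8 CPM (16.4 to 23.8) and 69.1 CPM (54.5 to 86.4), stroma-like cells at 5.39 CPM (4.88 to 5.95) and 14.7 CPM (12.9 to 16.6) and steroidogenic-like cells at 2.28 CPM (1.37 to 3.56) and 10.3 CPM (7.22 to 14.1). Outside the supporting cells the LGR5 level at 8 weeks thus lay below that at 4 weeks in these classes. In the 4-week mesonephros LGR5 stood at 72.1 CPM (61.9 to 83.6) in distal-tubule-like, 45.0 CPM (41.2 to 49.1) in proximal-tubule-like and 39.4 CPM (32.7 to 47.2) in podocyte-like cells, and the proximal-tubule-like and podocyte-like intervals overlapped. Of the 517 proximal-tubule-like UMIs, 501 lay in cluster 6, at 63.6 CPM (58.2 to 69.5), against 2.60 CPM in cluster 14 and 5.76 CPM in cluster 26. Cluster 6 also held 49 of the 146 distal-tubule-like cells. All 273 cells of distal-tubule cluster 27, led by DEFB1 and SLC12A3, held LGR5 at 21.0 CPM (13.0 to 32.1).

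ZNRF3, the ligase that clears Frizzled receptors, was found in most classes and was highest in the mesonephros. Podocyte-like cells held it at 369 CPM (348 to 392) at 4 weeks, apart from the 153 CPM (146 to 160) of proximal-tubule-like and 150 CPM (135 to 167) of distal-tubule-like cells, which overlapped. Thinned to 2000 UMIs, ZNRF3 was seen in 62 of 112 podocyte-like cells (55.4%, 45.7 to 64.8) and in 7 of 366 erythroid-like cells (1.91%, 0.772 to 3.90). The unthinned ZNRF3 shares were 86.7% and 6.35%, at medians of 10230 and 6057 UMIs. Sertoli-like cells held ZNRF3 at 63.4 CPM (59.2 to 67.8) at 8 weeks and 122 CPM (116 to 128) at 4 weeks, a log2 ratio of -0.94 (-1.06 to -0.82). Germ-cell-like cells held it at 68.3 CPM (63.4 to 73.3) and 138 CPM (129 to 146), a log2 ratio of -1.01 (-1.15 to -0.87). Steroidogenic-like cells held 37.8 CPM (33.7 to 42.2) and 37.7 CPM (31.6 to 44.6), and endothelial-like cells 46.6 CPM (41.5 to 52.2) and 41.4 CPM (38.6 to 44.3), with overlapping intervals in both classes.

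LEF1, the nuclear partner of beta-catenin, was highest in endothelium in both libraries. Endothelial-like cells held it at 202 CPM (191 to 213) at 8 weeks and 93.5 CPM (89.3 to 97.8) at 4 weeks, which was 52.0% and 39.9% of all LEF1 UMIs. Thinned to 2000 UMIs, LEF1 was seen in 32.3% (28.1 to 36.7) of 480 and 8.90% (7.44 to 10.6) of 1348 endothelial-like cells, against 0 of 755 macrophage-like cells at 8 weeks, which allows up to 0.397%, and 3 of 132 (2.27%) at 4 weeks. The unthinned LEF1 shares were 58.4% and 28.4% in endothelial-like and 1.48% and 4.52% in macrophage-like cells, at medians of 6197 and 7453 and of 5284 and 5843 UMIs.

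The endothelial log2 ratio of LEF1 was 1.11 (1.01 to 1.21), but it rested on different vessel cells in each library. At 8 weeks 74.8% of the endothelial-like cells were in cluster 12, led by COL15A1, CD93 and GJA4, and at 4 weeks 63.0% were in cluster 5, led by PLVAP, FAM167B and CHRM3. Within cluster 12 LEF1 stood at 233 CPM (220 to 246) in 421 cells at 8 weeks and 268 CPM (253 to 283) in 190 cells at 4 weeks, so the log2 ratio there was -0.20, the opposite direction. The endothelial ratio was also under 2-fold with 1 marker fewer per gate (0.70) and with cells of several gates kept (0.98). Cluster 5 held LEF1 at 44.9 CPM (41.3 to 48.7) in 891 cells at 4 weeks. Cluster 34, led by STAB2, PROX1 and RELN, genes of lymphatic and sinusoidal vessels, held LEF1 at 4.41 CPM (0.534 to 15.9) in 65 cells at 8 weeks.

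LEF1 was lower at 8 weeks in stroma-like, mural-like, steroidogenic-like and Sertoli-like cells. Stroma-like cells held it at 5.11 CPM (4.60 to 5.65) at 8 weeks and 24.5 CPM (22.3 to 27.0) at 4 weeks, a log2 ratio of -2.26 (-2.47 to -2.06). The 128 stroma-like cells of cluster 30 at 4 weeks, led by POSTN, SLIT2 and COL14A1, carried LEF1 at 106 CPM (87.3 to 127). In cluster 3, which both libraries share, LEF1 stood at 3.94 CPM (2.69 to 5.56) at 8 weeks and 21.8 CPM (17.4 to 26.9) at 4 weeks, and in cluster 2 at 5.78 CPM (4.96 to 6.69) and 13.8 CPM (10.1 to 18.3). Mural-like cells held LEF1 at 18.7 CPM (15.5 to 22.3) and 38.9 CPM (32.5 to 46.2), steroidogenic-like cells at 4.68 CPM (3.33 to 6.39) and 13.0 CPM (9.58 to 17.3) and Sertoli-like cells at 5.26 CPM (4.11 to 6.64) and 8.25 CPM (6.75 to 9.99), with no overlap in any of these pairs. The steroidogenic-like log2 ratio of -1.48 was -0.36 without the top 6% of cells by UMIs. Germ-cell-like cells went the other way with 15.8 CPM (13.5 to 18.3) and 7.97 CPM (6.11 to 10.2). The germ cells of cluster 35, led by TDRD1 and DAZL, genes of differentiating germ cells, carried LEF1 at 42.6 CPM (34.0 to 52.8) in 110 cells at 8 weeks. In cluster 8, led by POU5F1 and TFAP2C, LEF1 stood at 10.7 CPM (8.34 to 13.6) in 380 cells at 8 weeks and 5.85 CPM (4.07 to 8.13) in 300 cells at 4 weeks.

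RUNX1 was highest in leukocytes. Macrophage-like cells held it at 585 CPM (565 to 605) at 8 weeks and 899 CPM (844 to 957) at 4 weeks, and other leukocytes at 333 CPM (290 to 381) and 593 CPM (548 to 640). These intervals did not overlap within a library. Thinned to 2000 UMIs, RUNX1 was seen in 62.6% (59.1 to 66.1) and 75.0% (66.7 to 82.1) of macrophage-like cells. Endothelial-like cells showed it at 2.08% (1.00 to 3.80) and 2.45% (1.69 to 3.42). The unthinned RUNX1 shares were 77.1% and 77.4% in macrophage-like cells, at medians of 5284 and 5843 UMIs, and 14.2% and 14.6% in endothelial-like cells, at medians of 6197 and 7453 UMIs.

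Among gonadal cells RUNX1 was found in Sertoli-like cells at 42.4 CPM (39.0 to 46.0) at 8 weeks and 116 CPM (111 to 123) at 4 weeks, a log2 ratio of -1.46 (-1.60 to -1.32). Endothelial-like cells held 21.2 CPM (17.8 to 25.1) and 16.5 CPM (14.8 to 18.4), so the Sertoli-like level lay above theirs in each library. In cluster 4, which holds 57.3% of the 8-week and 81.5% of the 4-week Sertoli-like cells, RUNX1 stood at 44.9 CPM (40.3 to 49.9) and 121 CPM (115 to 128). The Sertoli factor SOX9 stood at 279 and 556 CPM in the same class, a log2 ratio of -1.0 (-1.05 to -0.94), while AMH had a ratio of 0.39 (0.37 to 0.41). Steroidogenic-like cells held RUNX1 at 34.7 CPM (30.8 to 38.9) and 29.7 CPM (24.3 to 35.9), which overlapped. Mural-like cells held it at 59.5 CPM (53.7 to 65.7) and 119 CPM (108 to 131), above the Sertoli-like interval at 8 weeks and overlapping it at 4 weeks. This class was mixed, since its summed stroma markers had a median of 5671 and 5716 CPM per cell against 3292 and 1307 CPM for its own markers. All cells of cluster 17, led by ACTA2 and ITGA7, held RUNX1 at 93.1 CPM (83.6 to 103) and 309 CPM (275 to 345), above the Sertoli-like interval in each library. Cluster 9, also named mural by its markers, held 36.3 CPM (32.2 to 40.7) at 8 weeks.

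**Figure D3:**
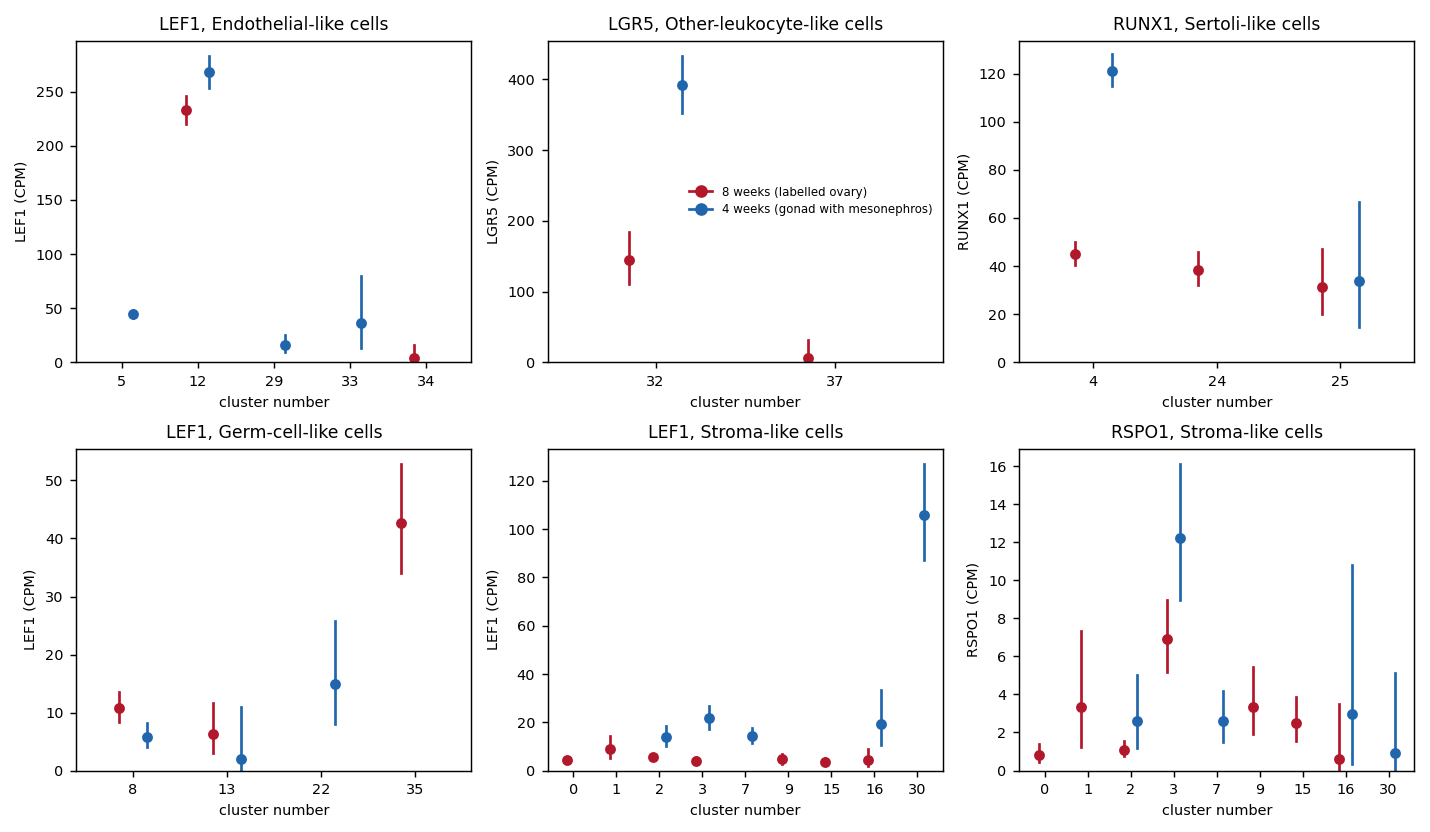
Level in CPM of LEF1, LGR5, RUNX1 and RSPO1 within marker-gated classes split by cluster, 8 weeks left of 4 weeks at each cluster; lines are 95% Poisson intervals. LEF1 is at 233 and 268 CPM in endothelial cluster 12 and at 44.9 CPM in cluster 5, and LGR5 is high in leukocyte cluster 32 and not in cluster 37.

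Counted over classes, more of the 7 genes were at least 2-fold lower than at least 2-fold higher at 8 weeks. Only genes with at least 50 UMIs over both libraries in a class were counted. In Sertoli-like cells 5 members passed this filter, and 1, RUNX1, was lower and 0 higher, where 15.8% of all 14254 such genes were at least 2-fold apart, 9.01% lower and 6.84% higher. In steroidogenic-like cells 2 of 6 members, LGR5 and LEF1, were lower and 0 higher, where 10.2% of all genes were apart, 5.8% lower and 4.42% higher. FOXL2 there had a log2 ratio of -0.71 (-1.19 to -0.21), short of 2-fold, and of -1.19 without the top 6% of cells by UMIs. Summed stroma markers had a median of 1154 CPM per steroidogenic-like cell at 8 weeks and 338 CPM at 4 weeks, and their part in these ratios was not tested. In stroma-like cells all 7 passed the filter and 4 were lower (RSPO1, LGR5, LEF1 and RUNX1) and 0 higher, where 13.0% of all genes were apart, 8.67% lower and 4.35% higher. WNT4 in stroma-like cells had a log2 ratio of -0.81 (-1.01 to -0.60), ZNRF3 of -0.37 (-0.46 to -0.28) and FOXL2 of -0.44 (-1.06 to 0.26).

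In germ-cell-like cells 1 of 5 members, ZNRF3, was lower and 0 higher, where 15.7% of all genes were apart, 7.36% lower and 8.32% higher. In endothelial-like cells 1 of 4, LGR5, was lower and 1, LEF1, was higher, beside 17.4% of all genes apart, 8.22% lower and 9.22% higher. In macrophage-like cells 2 of 3, LGR5 and ZNRF3, were lower and 0 higher, beside 16.8% apart, 7.48% lower and 9.37% higher. In other leukocytes 1 of 3, LGR5, was lower and 0 higher, beside 15.7% apart, 10.8% lower and 4.91% higher. In mural-like cells 2 of 4, LEF1 and RUNX1, were lower and 0 higher, beside 11.4% apart, 6.52% lower and 4.91% higher. Of these 15 calls past 2-fold, 6 stayed past 2-fold under every alternative gate, filter, cluster and scaling tried. These were RUNX1 in Sertoli-like cells (-1.51 to -1.40), LEF1 in stroma-like cells (-3.07 to -1.93) and LGR5 in steroidogenic-like, endothelial-like, macrophage-like and other leukocytes. Other leukocytes had 7 alternatives, against 9 in the other classes, since gates with 1 marker more or fewer left too few of these cells. The other 9 fell short of 2-fold under at least 1 alternative, among them ZNRF3 in macrophage-like cells (-0.08 with clusters named by markers), RUNX1 in stroma-like cells (-0.08 in the shared cluster), LGR5 in stroma-like cells (-0.68 in the shared cluster) and RSPO1 in stroma-like cells (-0.78 with named clusters). LEF1 in mural-like cells was at -0.47 in the shared cluster, and ZNRF3 in germ-cell-like and RUNX1 in mural-like cells lay near 2-fold, at -0.89 at the weakest in both. The members that passed the filter did so partly through the library where they are high, so these counts describe the libraries and carry no test.

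**Figure D4:**
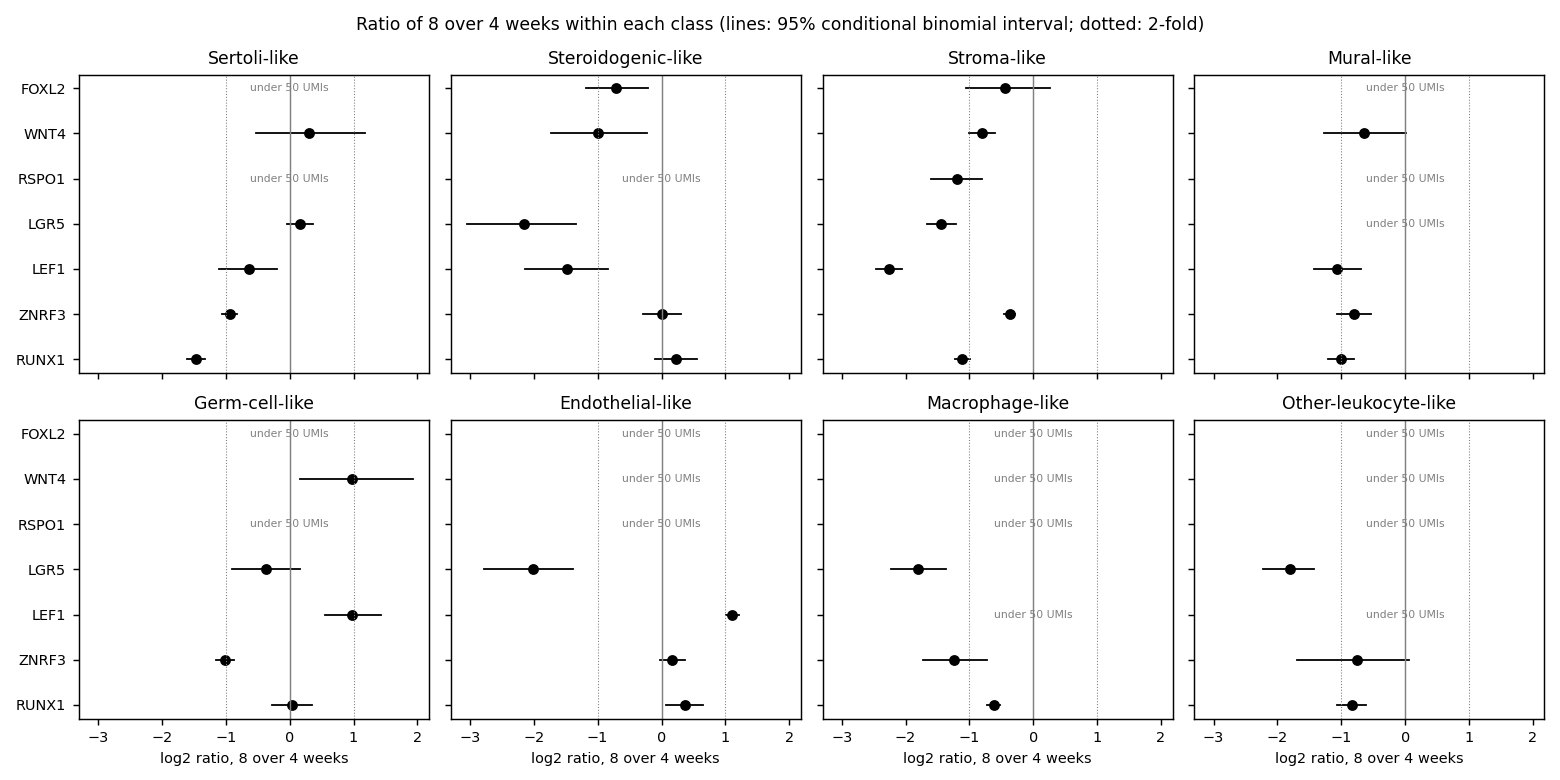
Log2 ratio of 8 over 4 weeks of each gene within the 8 classes that both libraries hold; lines are 95% conditional binomial intervals, dotted lines mark 2-fold, and genes under 50 UMIs in a class are not drawn. Most points lie left of 0, with LEF1 in endothelial-like cells (1.11) as the point furthest to the right.

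The rest of the WNT pathway in Sertoli-like cells showed no common direction. Of 73 listed genes, 52 passed the filter, 6 were at least 2-fold higher and 3 at least 2-fold lower at 8 weeks, and their median log2 ratio was -0.22, beside -0.11 over all genes. Of 13 intracellular genes 12 had a ratio below 0, with a median of -0.36, among them CTNNB1, which encodes beta-catenin, at 173 and 213 CPM, the kinase gene CSNK1A1 at 346 and 518 CPM, and APC, part of the complex that destroys beta-catenin, at 77.0 and 151 CPM. The DNA-binding partners TCF7, TCF7L1 and TCF7L2 all had ratios below 0, between -0.58 and -0.21. WNT6 was the ligand at the highest level, with 218 CPM at 8 weeks and 152 CPM at 4 weeks, and WNT5A stood at 71.3 and 84.6 CPM. Among the other receptors LGR4, the relative of LGR5, stood at 81.4 and 96.1 CPM and LRP6, a WNT co-receptor, at 73.0 and 86.9 CPM. The feedback gene AXIN2 stood at 13.5 and 10.5 CPM.

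The 3 WNT genes with the lowest ratio were TNFRSF19 (24.4 and 60.0 CPM, -1.30), NKD1 (6.90 and 15.2 CPM, -1.14) and the receptor FZD8 (4.15 and 8.57 CPM, -1.04). The 3 with the highest were the secreted inhibitors FRZB (27.6 and 4.16 CPM, 2.72) and SFRP1 (34.1 and 6.60 CPM, 2.36), and the intracellular inhibitor NKD2 (10.6 and 2.91 CPM, 1.85). FRZB stood at 48.8 and 7.90 CPM and SFRP1 at 48.3 and 14.9 CPM in endothelial-like cells, and NKD2 at 51.2 and 9.50 CPM, so these genes were no higher in Sertoli-like than in endothelial-like cells. Stroma markers moved with them, with a median summed level of 304 CPM per Sertoli-like cell at 8 weeks and 40.8 CPM at 4 weeks, and of 492 and 83.3 CPM per endothelial-like cell. Their part in these ratios was not tested.

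**Figure D5:**
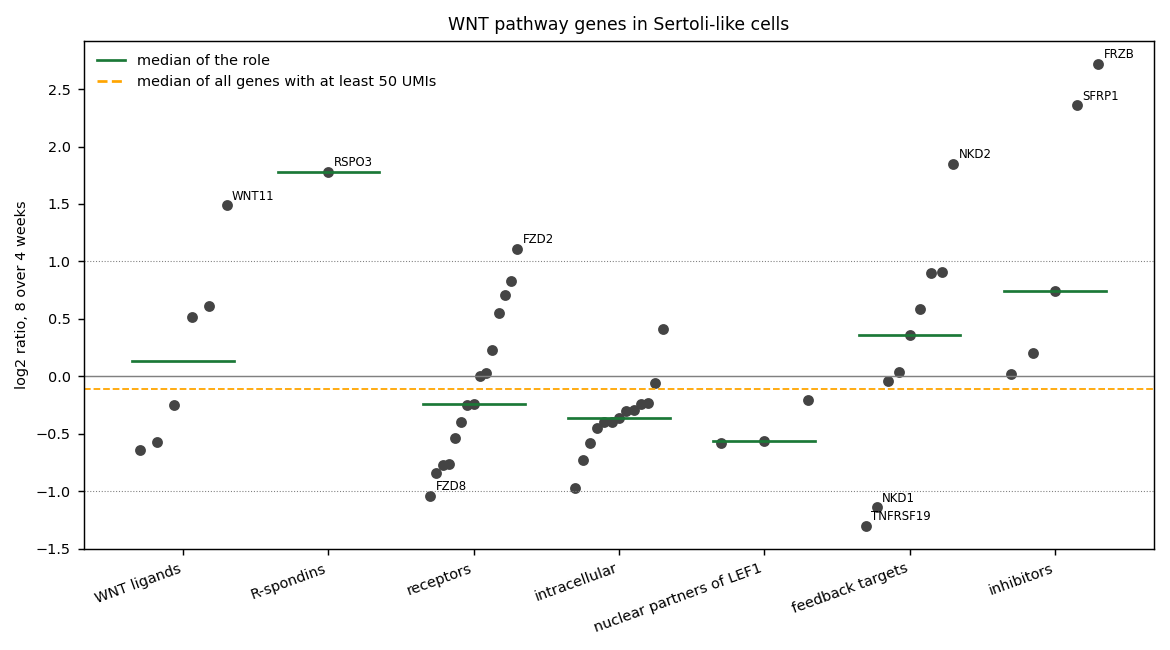
Log2 ratio of 8 over 4 weeks of 52 WNT pathway genes in Sertoli-like cells by role; green lines are role medians, the dashed line is the median of all genes (-0.11) and genes past 2-fold are named. The intracellular genes sit mostly below 0, and FRZB and SFRP1 lie highest.

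Of 13 other ovarian genes, 9 passed the filter in Sertoli-like cells, 2 were at least 2-fold higher, 2 lower, and their median log2 ratio was -0.49. Over all genes in these cells 6.84% were higher and 9.01% lower, with a median of -0.11. BMP2, a signal of mouse pre-granulosa cells, stood at 3.56 CPM at 8 weeks and 17.8 CPM at 4 weeks, and the kinase gene MAP3K1 at 213 and 599 CPM. NR0B1, a nuclear receptor active in both gonads, stood at 92.4 and 32.1 CPM, beside 106 and 4.67 CPM in endothelial-like cells. The TGF-beta antagonist FST, a WNT4 target in the mouse ovary, stood at 5.64 and 3.06 CPM, beside 4.92 and 4.08 CPM in endothelial-like cells. Of 13 testis genes 11 passed, 0 were 2-fold higher and 1 lower, FGF9 at 4.15 and 12.2 CPM, with a median of -0.22, beside the same values over all genes. Of the genes listed with RUNX1, RUNX2 stood at 2.97 and 4.72 CPM and the RUNX partner CBFB at 51.8 and 50.8 CPM. RUNX1T1, which is no RUNX factor itself, stood at 25.1 and 50 CPM.

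The WNT list went both ways in the other classes. In stroma-like cells 59 genes passed, 6 were at least 2-fold higher and 5 lower, with a median log2 ratio of -0.11, beside -0.07 over all genes. RSPO2 and DKK2 were the stroma genes with the highest ratios, at 8.42 and 2.01 CPM and at 6.55 and 1.38 CPM, and RSPO3 stood at 30.5 and 17.5 CPM where RSPO1 was lower. In steroidogenic-like cells 39 passed, 2 were higher and 3 lower, with a median of -0.13, beside -0.09. In endothelial-like cells 48 passed, 11 were higher and 3 lower, with a median of 0.15, beside 0.01. The 11 include FRZB and SFRP1, given above, and WNT5A at 19.5 and 2.49 CPM, and the stroma markers in these cells were higher at 8 weeks too. In germ-cell-like cells 51 passed, 7 were higher and 4 lower, with a median of -0.10, beside -0.01, and in macrophage-like cells 29 passed, 6 were higher and 2 lower, with a median of 0.09, beside -0.04. In mural-like cells 45 passed, 3 were higher and 3 lower, with a median of -0.36, beside -0.14. In other leukocytes 9 passed and 0 were 2-fold apart, with a median of -0.55, beside -0.20.

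Genes whose levels followed each member most closely were sought over 20 profiles, each a class of at least 50 cells in 1 library. The profiles share libraries and depth, so Pearson's r is a description. FOXL2, WNT4 and RSPO1 stayed under 20 CPM in every profile, and for these only 2 genes each are named. FOXL2 was most like STAR and ACAT2 (r = 0.929 each), WNT4 like DVL3 (0.896) and MYRF (0.891), and RSPO1 like HTR7 (0.896) and FOXC2 (0.874), both highest in podocyte-like cells. LGR5 was most like FOSL2, LEKR1, BIRC3, SCML4 and TIPARP (0.876 to 0.86). LEF1 was most like the endothelial genes MMRN2 (0.891) and ESAM (0.839), with IPO11, RAPGEF5 and ESM1 between them. ZNRF3 was most like PTPN13, EPB41L5, SNRNP70, SPATA17 and TEAD1 (0.919 to 0.912), and RUNX1 like CD44, CCR2, TMEM156 and RHOG (0.914 to 0.899).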

How the data were processed

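RNA of single cells was measured in 2 libraries. The authors deposited unnormalized UMI counts, whole numbers for each pair of a gene and a barcode. The file headers name Cell Ranger 7.1.0, and the submitters' processing notes name version 2.1.1. A DNBelab C droplet kit was used, per the labels' protocols. What genome build, annotation, intron setting and strand setting the authors chose is not given in the sources used here. Of 21981 features deposited with a locus identifier only, 768 took a symbol from a RefSeq gene table, and 122 of 128 markers were found.

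Cells with at least 200 genes were kept, which left 14590 cells at 8 weeks and 8912 at 4 weeks. A cell holds a marker with at least 1 UMI and 3 times the marker's mean level in the library (1 time for stroma). A class needs 3 markers (mural 4, stroma 5), and these thresholds were set after the data were seen. Macrophage takes precedence over other leukocytes, and stroma and pre-granulosa cells must meet no other gate. Cells of several classes, 2.62% at 8 weeks and 3.52% at 4 weeks, were left out. This stands in for a doublet caller, which was not run. At 8 and 4 weeks, 136 and 79 Sertoli-like cells lay at the threshold itself and 215 and 106 cells 1 marker below it. For steroidogenic-like cells these were 89 and 26, and 175 and 153. Sertoli-like cells also held summed steroidogenic markers at a median of 1415 and 1319 CPM.

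Classes were compared with at least 50 cells per library (20 for germ cells). Levels have exact Poisson intervals, ratios (0.5 UMI added to each sum) conditional binomial intervals and shares exact Clopper-Pearson intervals at 95%. A count of 0 was given the limit of 3 UMIs. The script that computes ratios and intervals was checked on simulated counts, which is no test of the ratios themselves. Clusters came from 2000 variable genes without the 7 genes, 30 components, 20 neighbours and Leiden at resolution 1.0 (leidenalg 0.10.2, scikit-learn 1.9.0, numpy 2.4.6), and gave 39 clusters, 9 of them unnamed. Genes named from the lists are the 3 highest and 3 lowest ratios and the 3 highest levels per role, with SOX9, AMH, SRY and DMRT1 always; others were chosen after their values were seen. The 7 genes and the lists were chosen with earlier results of these data known. Sequences are not used here, and 1 gene that the likeness rule names is not reported here.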

Additional observations from a re-analysis of the deposited data

Results flagged for a closer look

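LEF1 differed in direction between classes under the same contrast. Its log2 ratio of 8 over 4 weeks was 1.11 in endothelial-like cells, against -1.48 in steroidogenic-like, -2.26 in stroma-like and -1.06 in mural-like cells. The difference between the classes was not tested, since each stage is 1 library. Within the endothelial cluster that both libraries share, the ratio was -0.20.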

How the results depend on the processing

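No paired analysis was possible because each stage is 1 library, and no replicate could be left out. Of 327 alternative ratios, 277 stayed within the interval of the value reported and 47 moved outside it. The remaining 3 changed sign where the reported interval excluded equal levels. Sign changes of ratios whose interval included equal levels were not counted apart. Of the alternative levels 198 moved and 740 did not, and of the shares 256 moved and 164 did not. Keeping only the cluster of a class that both libraries share, an alternative chosen after seeing the data, gave log2 ratios of -0.20 for LEF1 and -0.05 for RUNX1 in endothelial-like cells, and clusters named by markers in place of gates gave 0.01 for ZNRF3 in mural-like cells. Named clusters also gave FOXL2 at 0.82 CPM in Sertoli-like cells at 8 weeks and log2 ratios of -2.43 for LGR5 in other leukocytes, -0.78 for RSPO1 and -3.07 for LEF1 in stroma-like cells. With 1 marker fewer, FOXL2 in Sertoli-like cells at 8 weeks was 1.18 CPM, and LEF1 had 0.70 in endothelial-like and -2.58 in stroma-like cells. Cells of several gates, when kept, gave 0.98 for LEF1 in endothelial-like cells. Without the top 6% of cells by UMIs, FOXL2 in steroidogenic-like cells was 7.88 CPM at 8 weeks with a log2 ratio of -1.19, and LEF1 had 1.55 in endothelial-like and -1.93 in stroma-like cells. The share of steroidogenic-like cells with FOXL2 was 3.06% at 8 weeks and 9.27% at 4 weeks at 4000 UMIs, and 15.5% and 23.4% unthinned. With at least 200 UMIs per gene, genes 2-fold apart numbered 1349 in Sertoli-like, 490 in steroidogenic-like, 1281 in germ-cell-like, 1234 in endothelial-like, 714 in macrophage-like, 234 in other leukocyte, 1245 in stroma-like and 661 in mural-like cells, since fewer genes are counted. The cause of the other moves was not tested. With 1 more marker needed, 1 class had too few cells for a count. Leaving out the 100 most abundant genes from the scaling shifted all ratios by at most 0.1. Sertoli-like cells hold under 10 UMIs of FOXL2 and of RSPO1 per library, so their levels of these genes rest on few counts.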

Other observations

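In the distal-tubule-like and podocyte-like cells of the 4-week mesonephros, LGR4 stood at 261 and 259 CPM, the highest levels of that gene in any class compared. RUNX3 stood at 199 CPM at 8 weeks and 445 CPM at 4 weeks in other leukocytes, and at 27.0 and 59.2 CPM in macrophage-like cells. TCF7, a DNA-binding partner in the same family as LEF1, stood at 87.3 and 174 CPM in other leukocytes. FST, listed among the ovarian genes, was highest in germ-cell-like cells, at 100 CPM at 8 weeks and 88.3 CPM at 4 weeks, and IRX3 in endothelial-like cells at 4 weeks, at 66.9 CPM, beside 2.77 CPM at 8 weeks.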
